A study of Mus musculus with 54 samples.

Results

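The genes described here remodel the extracellular matrix around myogenic progenitors: the matrix metalloproteinases Mmp2, Mmp9 and Mmp14, the aggrecanase Adamts5, the tissue inhibitors of metalloproteinases Timp1, Timp2 and Timp3, and the lysyl oxidases Lox, Loxl1 and Loxl2. They were chosen by name as a functional group, by matching gene numbers to mouse symbols. All 10 were found among the 19653 genes listed in any of the 27 tables, and all 10 were among the 14658 genes tested. Mmp9 was the member closest to the lower limit of reads. In the mouse genome (mm10) the proteases lie at chr8:92827290-92853421 (Mmp2), chr14:54431598-54442456 (Mmp14), chr2:164940326-164955850 (Mmp9) and chr16:85858157-85901125 (Adamts5). The inhibitors lie at chrX:20870166-20874737 (Timp1), chr11:118301061-118355411 (Timp2) and chr10:86300412-86349505 (Timp3), Loxl1 at chr9:58287723-58313212 and Loxl2 at chr14:69608692-69695834.

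Metalloproteinases of the matrix are made as inactive proenzymes and cut collagens, proteoglycans and other matrix proteins outside the cell. Mmp14 is anchored in the cell membrane and, together with Timp2, activates the proenzyme of Mmp2, whereas the Timp proteins block the active site of these enzymes. Lysyl oxidases work in the opposite sense, since they oxidise lysines of collagen and elastin so that fibres are cross-linked and stiffened. In muscle, the balance of these enzymes shapes the matrix through which progenitors migrate and on which they fuse.

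RNA came from H2K mouse myogenic progenitors, conditionally immortalised cells that proliferate in medium with γ-interferon and form myotubes after a switch to horse serum. The 6 lines were wildtype, EMD-/y (no emerin, a protein of the inner nuclear membrane), and EMD-/y progenitors transduced with lentivirus for wildtype emerin (+EMD) or for the emerin mutants S54F, Δ95–99 (a small deletion) or Q133H, which cause Emery-Dreifuss muscular dystrophy. Each line was sampled at 0, 24 and 48 hours of differentiation, called days 0, 1 and 2, which gave 18 groups of 3 labelled replicates and 54 samples in all. All 4 transduced lines lack the endogenous emerin that EMD-/y lacks, and each is 1 selected line. By the study's methods they were selected with puromycin at doses that differed between lines, and the labels name puromycin in the culture media of the mutant lines. By the study's blots of proliferating cells, Q133H had more emerin protein than wildtype, and +EMD, S54F and Δ95–99 had similar levels. For differentiation the mutant lines were plated more densely than wildtype and EMD-/y cells, and the density of +EMD is not given for the RNA. Emerin, its level, transduction, selection, puromycin and plating cannot be told apart in a difference between a mutant line and wildtype or EMD-/y. In +EMD against either line, emerin, its level, transduction and selection with puromycin cannot be told apart. The study's vector-only line is not among the samples. The 5 comparisons of a day with wildtype share its wildtype libraries. Whether a labelled replicate is a separate culture is not given, since the methods name 2 biological replicates with 3 technical replicates each, so p-values measure only the spread between these samples.

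Each deposited table gives a value for each of its 2 groups and no value for a single sample. The reads of each library were recovered by calculation from the sums of these values, as whole numbers, for 19650 of the 19653 genes. The libraries held between 16111098 and 19446959 reads. Within each group 2 libraries were more alike than either was to the third. The median over genes of the chi-square between the most alike pair was 0.709 to 1.69, against 1.57 to 9.26 for the next pair, where sampling noise alone gives 0.455. The next pair was over 2 times farther apart in 15 of the 18 groups, the exceptions being S54F on days 1 and 2 and Δ95–99 on day 2. For the tests, the most alike pair was therefore added up to 1 replicate, which leaves 2 replicates a group. Below, values are normalised reads (the reads of a library divided by its size factor), and the values of a group are given with the most alike pair first and the third library last. Differences between groups are log2 fold changes with the standard error (SE) from limma, and p-values are adjusted over all 14658 genes by the Benjamini-Hochberg method. A call is an adjusted p under 0.05. The adjustment is made within each comparison, so it is stricter where fewer genes differ. A call in a line and none in another is thus not by itself a difference between these lines.

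The transcript of the targeted gene, Emd, had 983 to 2034 reads per library in wildtype and 0 to 3 in EMD-/y. In the transduced lines it had 0 to 2 reads. The mouse Emd reads therefore check the loss of the endogenous gene, but not which emerin each transduced line carries, and these lines are called by their labels. The 8 myogenic markers had a summed level from 24829 in Q133H on day 1 to 456753 in wildtype on day 2. The level on day 2 was 57033, 67214 and 219571 in the 3 libraries of Q133H, so that the third library of that group stands apart. Pax7, a marker of muscle stem cells, was near absent in Q133H, with 1 to 13 reads per library over the 3 days, against 225 to 465 in wildtype at day 0. Of the markers of other cell types, Lum, Emcn, Ptprc, Adgre1, Lyz2, Adipoq and Plin1 were under 10 normalised reads in every group, and the summed levels were 15.9 to 51.2 for 5 endothelial markers and 22.6 to 308.0 for 6 macrophage markers. Other markers were not low. The 8 fibroblast and fibro-adipogenic markers summed to 1259 to 5478, with Ly6a at 286 to 4852 and Dpep1 at 123 to 4808 as group means, and the 5 smooth muscle and pericyte markers to 496 in +EMD on day 2 up to 3152 in EMD-/y on day 1, with Pdgfrb at 448 to 2937. In bulk RNA, fewer cells of a type and less RNA per cell cannot be told apart.

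Among the members, the inhibitors were the most abundant per length and Mmp9 the least. In wildtype progenitors at day 0, per kilobase of gene and for library size (RPKM, mean ± SD, n = 3), Timp1 stood at 664 ± 339, Timp2 at 311 ± 36.3, Timp3 at 166 ± 27.6, Lox at 123 ± 15.3, Mmp14 at 89.6 ± 2.06, Mmp2 at 32.7 ± 6.6, Adamts5 at 15.3 ± 2.96, Loxl1 at 12.1 ± 2.68, Loxl2 at 12.0 ± 1.23 and Mmp9 at 0.141 ± 0.056. The intervals of Timp1 and Timp2 overlapped, as did those of Adamts5, Loxl1 and Loxl2, and those of Timp3 and Lox came close to meeting. These means and SDs, here and on day 2, count the most alike pair as 2 libraries, so the intervals are a description. By day 2 the order in wildtype had changed. Timp2 was then highest with 261 ± 14.1 RPKM, followed by Timp1 with 58.2 ± 16.0, Mmp14 with 29.7 ± 1.64, Mmp2 with 28.9 ± 0.162, Loxl1 with 21.5 ± 1.26, Adamts5 with 20.0 ± 0.834, Lox with 18.8 ± 1.82, Timp3 with 11.3 ± 2.24, Loxl2 with 2.38 ± 0.897 and Mmp9 with 0.018 ± 0.031. On that day the intervals of Mmp14 and Mmp2 overlapped, as did those of Loxl1, Adamts5 and Lox with each other.

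**Figure D1:**
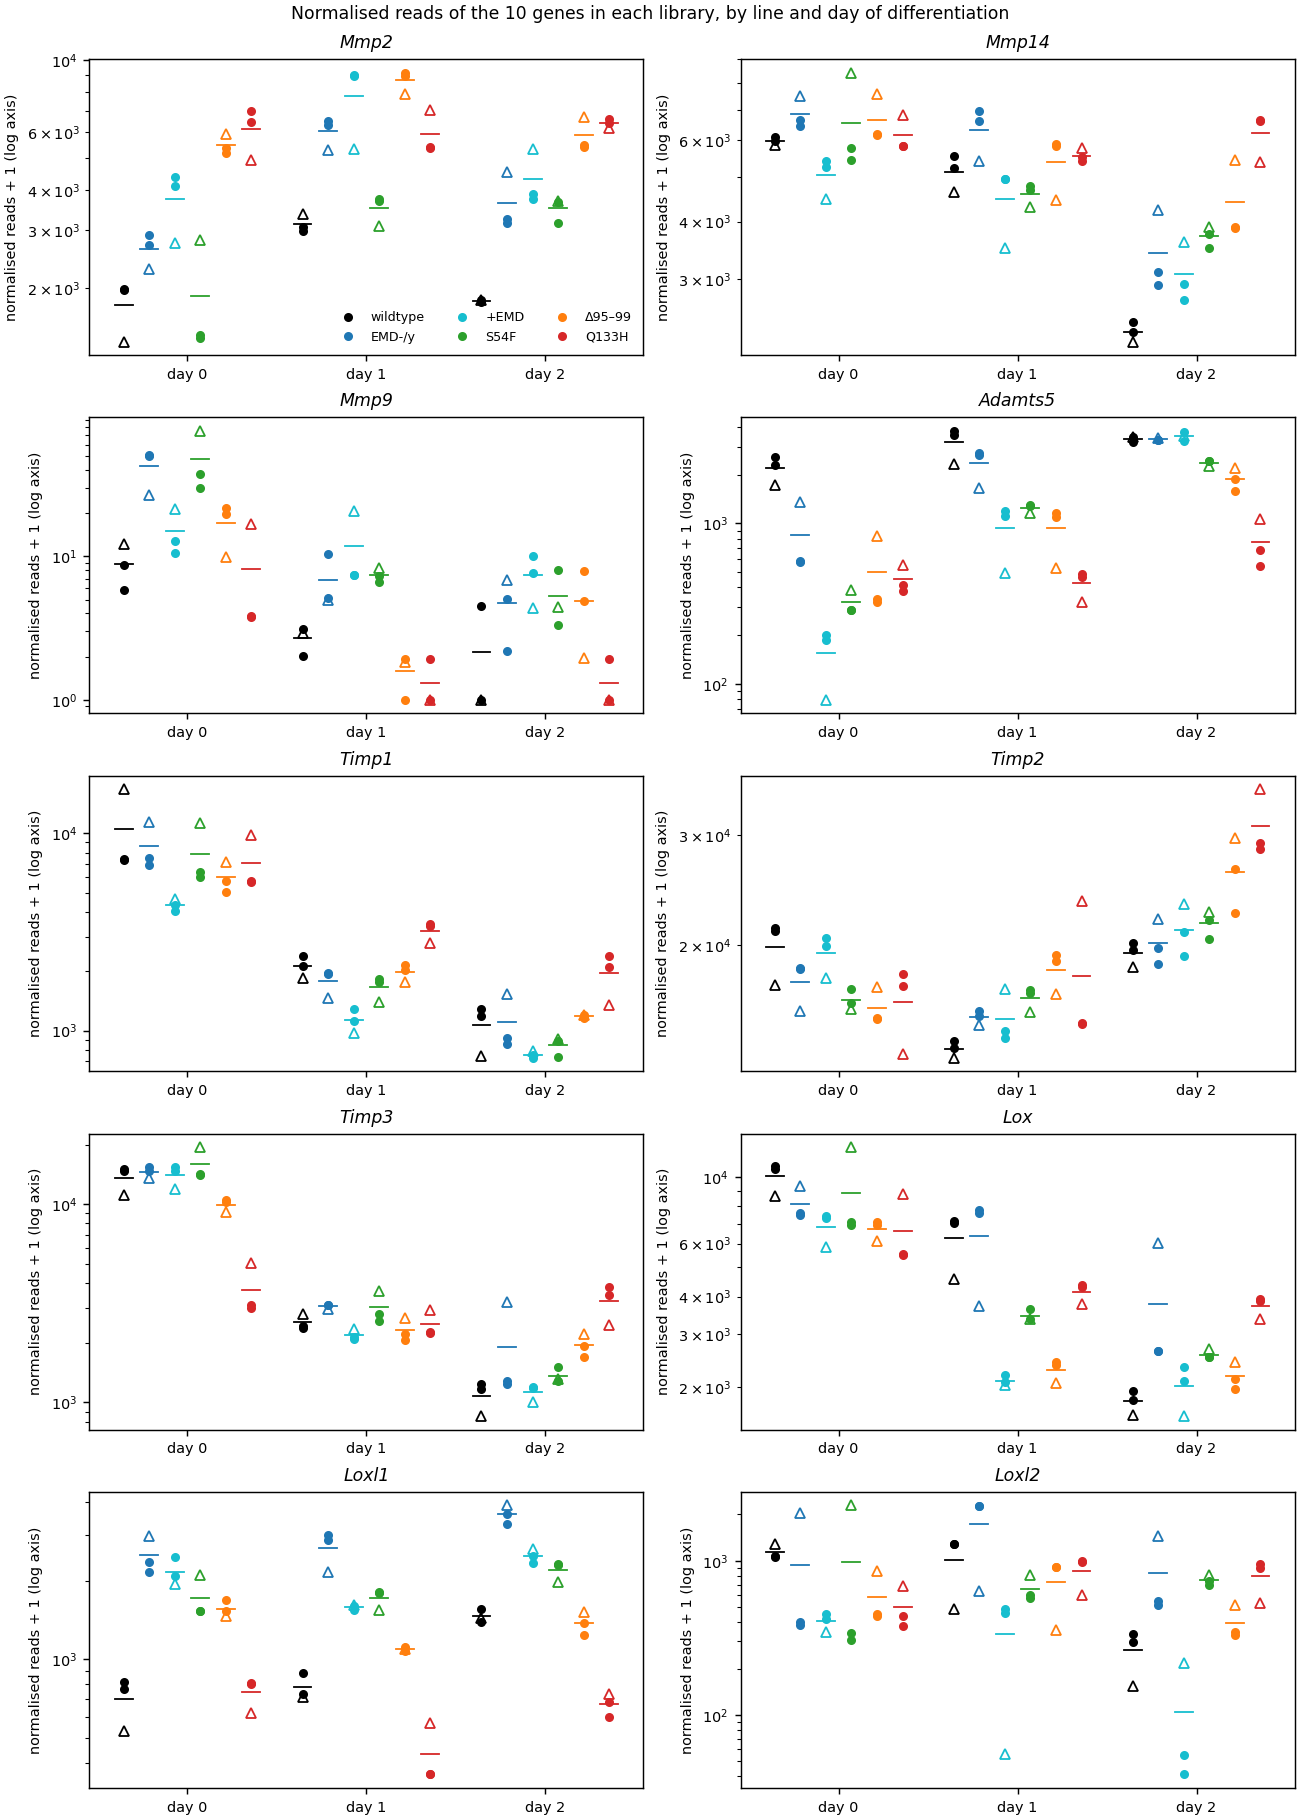
Normalised reads plus 1 of each member on a log axis in every library of the 18 groups, by line and day. Filled circles are the most alike pair, open triangles the third library, and lines the mean of 3 libraries. Timp1 steps down from day 0 to day 1 in every line, and Timp3 steps down steeply in every line but Q133H. In Q133H the Timp3 libraries hold 2981 to 5054 at day 0 and 2251 to 2929 on day 1. Loxl1 lies above wildtype in EMD-/y, +EMD and S54F on every day.

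Mmp2 and Loxl1 were the members most often higher than in wildtype, in 11 and 9 of 15 comparisons of a line with wildtype on the same day, and Adamts5 was most often lower, in 9. Timp1 and Timp3 fell at the start of differentiation. Q133H differed both from wildtype and from EMD-/y in Mmp2 and Timp3 at day 0, and in Adamts5 and Loxl1 on day 1. On day 2 this held for Mmp2, Mmp14, Timp2, Adamts5 and Loxl1. The calls of Mmp2 and Timp2 against EMD-/y were each lost without 1 library. Over the 15 comparisons with wildtype and the 12 between days, 95 of 270 member values were calls (35.2%), against 33.2% for all genes, so that as a group the members passed the test about as often as other genes. At day 0 the members called were 2 of 10 (Mmp9 and Loxl1 higher, 8.49% of all genes) in EMD-/y, 4 of 10 (Mmp2 and Loxl1 higher, Adamts5 and Timp1 lower, 34.9% of all genes) in +EMD, 3 of 10 (Mmp9 and Loxl1 higher, Adamts5 lower, 17.6% of all genes) in S54F, 3 of 10 (Mmp2 and Loxl1 higher, Adamts5 lower, 18.4% of all genes) in Δ95–99 and 3 of 10 (Mmp2 higher, Adamts5 and Timp3 lower, 22.3% of all genes) in Q133H. On day 1 the count was 1 of 10 (Loxl1 higher, 6.73% of all genes) in EMD-/y, 4 of 10 (Mmp2 and Loxl1 higher, Adamts5 and Lox lower, 42.1% of all genes) in +EMD, 2 of 10 (Loxl1 higher, Adamts5 lower, 20.9% of all genes) in S54F, 3 of 10 (Mmp2 higher, Adamts5 and Lox lower, 42.3% of all genes) in Δ95–99 and 4 of 10 (Mmp2 and Timp2 higher, Adamts5 and Loxl1 lower, 47.1% of all genes) in Q133H. On day 2 it was 3 of 10 (Mmp2, Lox and Loxl1 higher, 7.33% of all genes) in EMD-/y, 2 of 10 (Mmp2 and Loxl1 higher, 38.0% of all genes) in +EMD, 2 of 10 (Mmp2 and Mmp14 higher, 15.6% of all genes) in S54F, 4 of 10 (Mmp2, Mmp14, Timp2 and Timp3 higher, 46.1% of all genes) in Δ95–99 and 7 of 10 (Mmp2, Mmp14, Timp2, Timp3 and Lox higher, Adamts5 and Loxl1 lower, 59.6% of all genes) in Q133H. The median log2 difference of the 10 members on day 2 was 1.00 in EMD-/y, 0.14 in +EMD, 0.56 in S54F, 0.60 in Δ95–99 and 0.94 in Q133H, against medians over all genes between -0.006 and 0.014. In EMD-/y the third library of day 2 lay above the mean of the most alike pair for every member. Timp3 there held 1241, 1281 and 3196 normalised reads and Lox 2640, 2635 and 6010, so the EMD-/y median depends on that library. The number of members whose libraries did not overlap with wildtype, out of 10 and with the share of all genes tested in brackets, was 5 in EMD-/y (34.1%), 7 in +EMD (55.8%), 4 in S54F (43.3%), 9 in Δ95–99 (45.0%) and 4 in Q133H (47.3%) at day 0. It was 5 in EMD-/y (33.9%), 8 in +EMD (64.2%), 6 in S54F (54.5%), 6 in Δ95–99 (62.6%) and 7 in Q133H (64.5%) on day 1 and 6 in EMD-/y (39.3%), 3 in +EMD (64.1%), 8 in S54F (50.7%), 6 in Δ95–99 (67.1%) and 9 in Q133H (71.4%) on day 2.

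Between day 0 and day 1 the calls were 4 of 10 (Mmp2 higher, Timp1, Timp2 and Timp3 lower, 48.8% of all genes) in wildtype, 5 of 10 (Mmp2 and Adamts5 higher, Mmp9, Timp1 and Timp3 lower, 45.6% of all genes) in EMD-/y, 5 of 10 (Mmp2 and Adamts5 higher, Timp1, Timp3 and Lox lower, 37.7% of all genes) in +EMD, 7 of 10 (Mmp2 and Adamts5 higher, Mmp14, Mmp9, Timp1, Timp3 and Lox lower, 36.5% of all genes) in S54F, 4 of 10 (Mmp9, Timp1, Timp3 and Lox lower, 33.1% of all genes) in Δ95–99 and 3 of 10 (Mmp9, Timp1 and Loxl1 lower, 27.1% of all genes) in Q133H. Between day 1 and day 2 they were 7 of 10 (Timp2 and Loxl1 higher, Mmp2, Mmp14, Timp1, Timp3 and Lox lower, 45.7% of all genes) in wildtype, 3 of 10 (Timp2 and Loxl1 higher, Mmp14 lower, 43.7% of all genes) in EMD-/y, 4 of 10 (Adamts5, Timp2 and Loxl1 higher, Timp3 lower, 44.8% of all genes) in +EMD, 2 of 10 (Timp2 higher, Timp3 lower, 45.3% of all genes) in S54F, 2 of 10 (Adamts5 and Timp2 higher, 33.9% of all genes) in Δ95–99 and 2 of 10 (Timp2 and Loxl1 higher, 26.1% of all genes) in Q133H. By these calls Timp1 fell over the first day in all 6 lines and Timp3 in 5, and Timp2 rose over the second day in all 6. The difference of a line's day change from that of wildtype was tested as well. Up to day 1 the members called were 0 of 10 (0.0341% of all genes) in EMD-/y, 0 of 10 (7.28% of all genes) in +EMD, 0 of 10 (3.51% of all genes) in S54F, 0 of 10 (11.1% of all genes) in Δ95–99 and 3 of 10 (Timp2 and Timp3 higher, Loxl1 lower, 22.5% of all genes) in Q133H. From day 1 to day 2 they were 0 of 10 (0.0341% of all genes) in EMD-/y, 0 of 10 (7.40% of all genes) in +EMD, 0 of 10 (0.416% of all genes) in S54F, 2 of 10 (Mmp14 and Lox higher, 10.5% of all genes) in Δ95–99 and 3 of 10 (Mmp14, Timp3 and Lox higher, 21.7% of all genes) in Q133H. Where limma gave 0, the unadjusted p was under 0.05 for 0 members in EMD-/y (3.49% of all genes), 2 in +EMD (22.9%), 1 in S54F (17.8%) and 2 in Δ95–99 (26.8%) up to day 1. After it, this held for 1 in EMD-/y (3.14%), 3 in +EMD (23.0%) and 3 in S54F (10.1%).

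Against EMD-/y the calls at day 0 were 2 of 10 (Adamts5 and Timp1 lower, 20.2% of all genes) in +EMD, 0 of 10 (2.31% of all genes) in S54F, 2 of 10 (Mmp2 higher, Loxl1 lower, 6.86% of all genes) in Δ95–99 and 4 of 10 (Mmp2 higher, Mmp9, Timp3 and Loxl1 lower, 12.8% of all genes) in Q133H. On day 1 they were 3 of 10 (Adamts5, Lox and Loxl1 lower, 31.5% of all genes) in +EMD, 0 of 10 (3.62% of all genes) in S54F, 3 of 10 (Adamts5, Lox and Loxl1 lower, 33.1% of all genes) in Δ95–99 and 3 of 10 (Mmp9, Adamts5 and Loxl1 lower, 41.1% of all genes) in Q133H. On day 2 they were 2 of 10 (Lox and Loxl1 lower, 28.6% of all genes) in +EMD, 0 of 10 (1.11% of all genes) in S54F, 1 of 10 (Loxl1 lower, 40.1% of all genes) in Δ95–99 and 5 of 10 (Mmp2, Mmp14 and Timp2 higher, Adamts5 and Loxl1 lower, 56.2% of all genes) in Q133H. S54F thus gave no call against EMD-/y by limma, where the unadjusted p was under 0.05 for 2, 2 and 1 members on days 0, 1 and 2, against 14.0%, 18.6% and 11.4% of all genes. By the ratios of the deposited group values, where a value counts if the higher group reached 10 and a pseudocount of 1 is added, the members were at least 2-fold from wildtype in 18 of 49 values at day 0 (13.0% of all genes' values), in 13 of 46 on day 1 (16.8%) and in 13 of 45 on day 2 (18.5%). Between days they were so in 22 of 58 values up to day 1, of which 17 were lower (17.4%), and in 9 of 55 after it (17.4%). The deposited ratios were not the same as ratios of the recovered group means. For the 9 members other than Mmp9 the log2 ratios differed by a median of 0.0179 and by up to 0.465, with the same sign in 242 of 243. Of the 95 member calls against wildtype or between days, 60 were kept when each library was left out in turn. Leaving out the third library of a group leaves it with 1 replicate, which is then assumed to vary like the other groups.

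**Figure D2:**
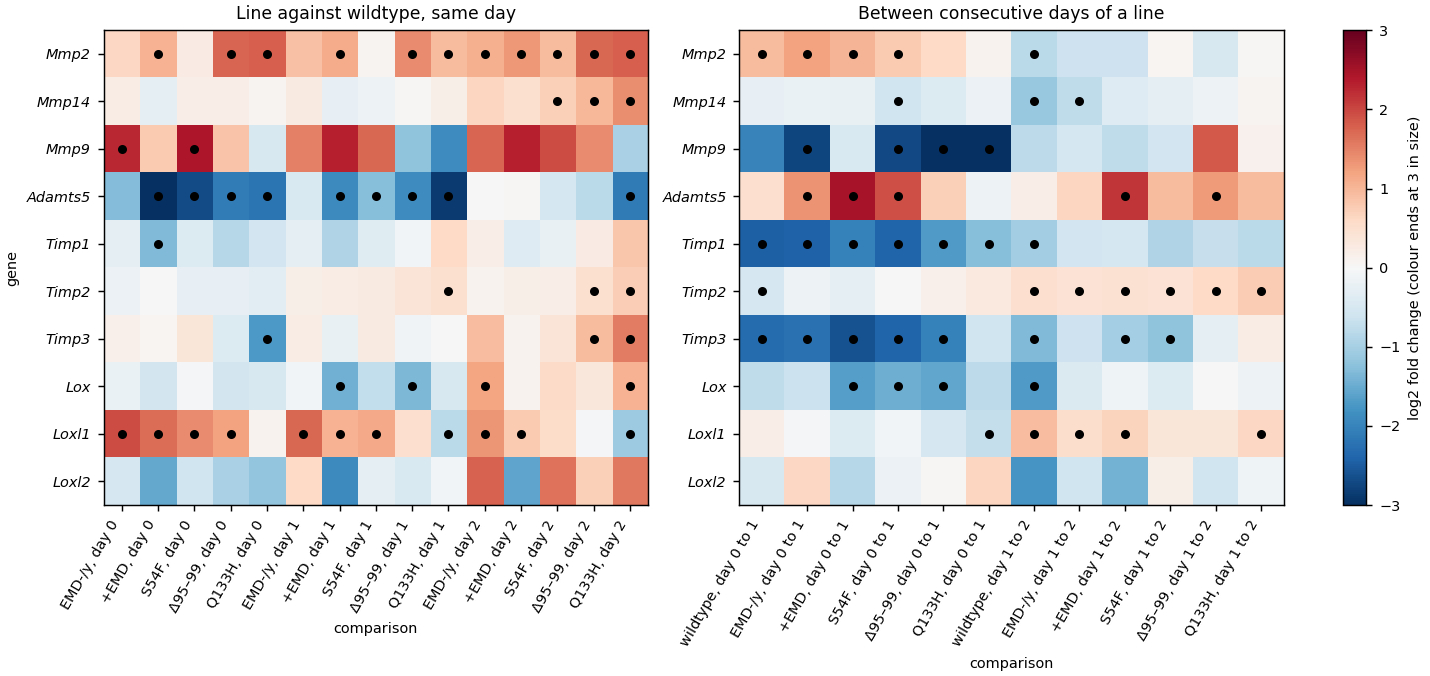
Log2 fold change of each member in every comparison with wildtype and between days, as colour that ends at 3 in size, by line and day. Dots mark an adjusted p under 0.05, as for Mmp2 in all 5 lines on day 2 and Timp1 in all 6 lines from day 0 to day 1.

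Mmp2, a secreted gelatinase that degrades denatured and basement membrane collagen, was higher than in wildtype in 11 of 15 comparisons of a line with wildtype and lower in none. At day 0 the wildtype libraries held 1987, 1961 and 1366 normalised reads, those of Δ95–99 5386, 5193 and 5916, and those of Q133H 6472, 6979 and 4940. The lowest mutant library was more than any wildtype library in both lines. The log2 difference from wildtype was 1.75 ± 0.29, adjusted p = 0.000179 in Δ95–99 and 1.80 ± 0.29, adjusted p = 0.000118 in Q133H, or 3.37-fold and 3.48-fold. The +EMD libraries held 4111, 4372 and 2742 (1.05 ± 0.29, adjusted p = 0.00797), which also lay above wildtype, but without the third wildtype library the adjusted p was 0.0841. S54F, with 1402, 1433 and 2812, overlapped wildtype (0.25 ± 0.30, adjusted p = 0.627). EMD-/y, with 2901, 2711 and 2287, lay above wildtype in all libraries without passing the test (0.62 ± 0.29, adjusted p = 0.235).

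By the test, Mmp2 rose from day 0 to day 1 in wildtype, EMD-/y, +EMD and S54F. The line with the small deletion held 5386, 5193 and 5916 at day 0 and 9162, 8967 and 7900 on day 1. Its libraries thus also rose without overlap, but this change did not pass the test. Wildtype libraries held 2994, 3063 and 3361 on day 1 and 1805, 1828 and 1829 on day 2, so the peak at day 1 did not overlap either neighbour. The log2 change was 0.94 ± 0.29, adjusted p = 0.0115 up to day 1 and -0.80 ± 0.29, adjusted p = 0.0299 after it. Both wildtype calls were lost without the third library of a day: the adjusted p was 0.119 without that of day 0, 0.0585 and 0.119 without that of day 1, and 0.0909 without that of day 2. In EMD-/y Mmp2 rose from 2901, 2711 and 2287 to 6517, 6317 and 5285 (1.20 ± 0.29, adjusted p = 0.00203), and the difference of its change from that of wildtype was 0.25 ± 0.41, adjusted p = 1.0. In +EMD the rise was 1.01 ± 0.29, adjusted p = 0.00838, with 0.133 without the third day 0 library, and in S54F it was 0.79 ± 0.29, adjusted p = 0.038, with 0.0615 without the third day 1 library. Q133H libraries held 5414, 5388 and 7024 on day 1 and 6428, 6611 and 6175 on day 2. They overlapped those of day 0, and the log2 change up to day 1 was 0.10 ± 0.28, adjusted p = 0.841.

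On day 2, Mmp2 was higher than wildtype in all 5 lines. Wildtype libraries agreed within 1805 to 1829 normalised reads, while the libraries of the other lines ran from 3153 in EMD-/y up to 6697 in Δ95–99. The log2 difference was 1.06 ± 0.29, adjusted p = 0.0278 in EMD-/y, 1.30 ± 0.29, adjusted p = 0.0014 in +EMD, 0.96 ± 0.29, adjusted p = 0.0304 in S54F, 1.72 ± 0.29, adjusted p = 8.25e-05 in Δ95–99 and 1.80 ± 0.29, adjusted p = 2.56e-05 in Q133H. The call in EMD-/y was lost without the third library of wildtype (adjusted p = 0.125) or of EMD-/y (0.243), and that in S54F without the third library of wildtype (0.117) or of S54F (0.143). On day 1, Δ95–99 libraries held 9162, 8967 and 7900 (1.41 ± 0.29, adjusted p = 0.000557), +EMD libraries 8913, 8981 and 5327 (1.12 ± 0.29, adjusted p = 0.00352), and Q133H differed by 0.95 ± 0.29, adjusted p = 0.00949, with 0.085 without the third Q133H library. EMD-/y libraries, with 6517, 6317 and 5285 on that day, also lay above every wildtype library (2994, 3063 and 3361) without passing the test. The transduced lines were also set against EMD-/y itself. Mmp2 was higher than in EMD-/y at day 0 in Δ95–99 (1.14 ± 0.29, adjusted p = 0.0181) and in Q133H (1.18 ± 0.29, adjusted p = 0.00873), but without the third EMD-/y library the adjusted p was 0.141 and 0.0852, and without the third Δ95–99 library it was 0.108. On day 2 Q133H was higher than EMD-/y by 0.74 ± 0.29, adjusted p = 0.033, with 0.0661 without the third Q133H library.

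Mmp14, the membrane-anchored collagenase that activates pro-Mmp2, did not differ from wildtype by the test in any line on days 0 and 1. It fell in wildtype and EMD-/y from day 1 to day 2. Wildtype libraries held 5995, 6108 and 5863 at day 0, 5541, 5221 and 4632 on day 1 and 2306, 2423 and 2195 on day 2, so each day lay below the one before, with the wide step after day 1 (-1.13 ± 0.22, adjusted p = 0.000312). EMD-/y also fell, from 6934, 6598 and 5423 to 2909, 3110 and 4246 (-0.77 ± 0.22, adjusted p = 0.0069). In Q133H the libraries held 5509, 5399 and 5771 on day 1 and 6625, 6637 and 5382 on day 2 and overlapped (0.09 ± 0.21, adjusted p = 0.811). The change in Q133H differed from the wildtype change by 1.22 ± 0.31, adjusted p = 0.00842, a call that was kept without each library in turn. In Δ95–99 the difference of changes was 0.97 ± 0.31, adjusted p = 0.046. That call was lost without any 1 of 7 of the 12 libraries, with an adjusted p of up to 0.186 without the third Δ95–99 library of day 2. In S54F Mmp14 fell up to day 1 (-0.61 ± 0.21, adjusted p = 0.0314), a change that did not differ from that of wildtype by the test (-0.35 ± 0.30, adjusted p = 0.582). The call was lost without the third library of day 0 (0.35) or day 1 (0.143).

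On day 2 Mmp14 was higher than wildtype in Q133H by 1.39 ± 0.22, adjusted p = 1.8e-05, or 2.62-fold, and higher than EMD-/y by 0.75 ± 0.22, adjusted p = 0.0057. It was also higher than wildtype in Δ95–99, with 3872, 3898 and 5434, by 1.00 ± 0.22, adjusted p = 0.000861. In S54F, with 3498, 3758 and 3896, it was higher by 0.72 ± 0.22, adjusted p = 0.0295, but the adjusted p was 0.148 without the third wildtype library and 0.146 without the third S54F library. Every EMD-/y and +EMD library also lay above wildtype on day 2 (0.64 ± 0.22, adjusted p = 0.0864, and 0.48 ± 0.22, adjusted p = 0.0932). Myogenic markers also differed between these lines. Their summed level on day 2 was 427291 to 497202 in wildtype, 248236 to 284872 in Δ95–99 and 57033 to 219571 in Q133H. Their part in the result was not tested.

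Mmp9, the gelatinase known from inflammatory and migrating cells, was at the edge of detection. The wildtype libraries held 5, 8 and 11 reads at day 0, 1, 2 and 2 on day 1 and 0, 3 and 0 on day 2. At day 0, EMD-/y held 52, 51 and 26 reads and S54F 38, 30 and 70, all above wildtype. The log2 difference from wildtype was 2.26 ± 0.65, adjusted p = 0.0303 in EMD-/y and 2.42 ± 0.63, adjusted p = 0.00978 in S54F. The first was lost without any 1 of 5 of its 6 libraries, with an adjusted p of up to 0.0806, and the second without the third S54F library (0.0507). At day 0, +EMD with 10, 12 and 20 reads, Δ95–99 with 23, 20 and 9 and Q133H with 3, 3 and 16 overlapped wildtype. By day 1, EMD-/y was down to 4, 9 and 4 reads (-2.76 ± 0.71, adjusted p = 0.00367) and S54F to 7, 6 and 8 (-2.70 ± 0.65, adjusted p = 0.00285). Mmp9 also fell in Δ95–99 and Q133H, where the day 1 libraries held 1, 0 and 1 reads in Δ95–99 and 0, 1 and 0 in Q133H, too few for the size of a fold change. The call in Q133H (fitted change -3.42 ± 1.20, adjusted p = 0.0389) was lost without the third day 0 library, where the log2 change was -2.46 (adjusted p = 0.201), or without the first or the third day 1 library (0.0791 and 0.156). Set against EMD-/y at day 0, Mmp9 was lower in Q133H (-2.73 ± 0.67, adjusted p = 0.00945), and without the third Q133H library the log2 difference was -3.69. On day 1, where it was also lower than EMD-/y (-3.39 ± 1.23, adjusted p = 0.0313), the call was lost without any 1 of 3 libraries (adjusted p of up to 0.113).

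Adamts5, a secreted protease that cleaves aggrecan and versican, was lower than wildtype in 9 of 15 comparisons and higher in none. It was low at day 0 in all 4 transduced lines. Wildtype libraries held 2314, 2570 and 1743 normalised reads, S54F 288, 288 and 386, Δ95–99 337, 321 and 835, Q133H 377, 412 and 547 and +EMD 187, 201 and 78.5. No library of these lines reached the lowest of wildtype. The log2 difference was -2.69 ± 0.50, adjusted p = 0.000635 in S54F, -2.10 ± 0.46, adjusted p = 0.00255 in Δ95–99, -2.20 ± 0.47, adjusted p = 0.00179 in Q133H and -3.87 ± 0.65, adjusted p = 9.48e-05 in +EMD, the last a level 14.6-fold lower than in wildtype. EMD-/y libraries, with 580, 575 and 1360, were also below wildtype but spread widely, and the test was not passed (-1.29 ± 0.44, adjusted p = 0.0751). In +EMD the level was also lower than in EMD-/y (-2.58 ± 0.66, adjusted p = 0.00815), which depended on the third EMD-/y library (0.057 without it).

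On day 1 Adamts5 was lower than wildtype, whose libraries held 3557, 3770 and 2352, in the same 4 lines. The log2 difference was -1.90 ± 0.44, adjusted p = 0.00165 in +EMD, -1.89 ± 0.44, adjusted p = 0.00173 in Δ95–99, -2.87 ± 0.47, adjusted p = 5.69e-05 in Q133H and -1.27 ± 0.43, adjusted p = 0.0383 in S54F, with 0.149 without the third S54F library. Against EMD-/y on that day it was lower in Q133H (-2.41 ± 0.48, adjusted p = 0.000486), in +EMD (-1.44 ± 0.44, adjusted p = 0.0175) and in Δ95–99 (-1.43 ± 0.44, adjusted p = 0.0168). The adjusted p was 0.204 in +EMD and 0.177 in Δ95–99 without the third library of the line.

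In +EMD, Adamts5 rose to 1115, 1192 and 487 on day 1 (2.47 ± 0.66, adjusted p = 0.00555) and to 3248, 3729 and 3497 on day 2 (2.14 ± 0.44, adjusted p = 0.000532), where it overlapped the wildtype libraries of 3448, 3205 and 3435 (0.04 ± 0.42, adjusted p = 0.947 against wildtype). EMD-/y rose up to day 1 (1.34 ± 0.44, adjusted p = 0.0172) and held 3300, 3316 and 3421 on day 2. S54F rose up to day 1 (1.92 ± 0.51, adjusted p = 0.0055), and Δ95–99 from day 1 to day 2 (1.29 ± 0.44, adjusted p = 0.0282). The Δ95–99 call was lost without the third library of day 1 (0.256) or day 2 (0.131). Q133H held 484, 462 and 324 on day 1 and 543, 678 and 1060 on day 2, and neither step passed the test. On day 2 Q133H was lower than wildtype (-2.12 ± 0.44, adjusted p = 0.00034) and than EMD-/y (-2.11 ± 0.44, adjusted p = 0.000402), whereas Δ95–99, with 1597, 1880 and 2209, and S54F, with 2454, 2426 and 2273, lay below wildtype in every library but gave adjusted p = 0.125 and 0.446. None of the 10 differences between a line's day change and that of wildtype passed for Adamts5, the lowest adjusted p being that of +EMD from day 1 to day 2 (1.95 ± 0.61, adjusted p = 0.0536).

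The inhibitors Timp1 and Timp3 both fell from day 0 to day 1 in most lines. The 300 bases around the start of each gene are shown because these members moved together over that day. They come from the RefSeq table of promoters (build GRCm38.p6, the same assembly as mm10), where windows of 4 of the 10 members were searched. They run 5′ to 3′ on the plus strand, with 250 bases before and 50 after the gene's start. Timp1 lies at chrX:20869916-20870215 and Timp3 at chr10:86300162-86300461. Capitals mark matches, on either strand, to the GC box GGGCGG or to the TEAD motif CATTCC.
Timp1: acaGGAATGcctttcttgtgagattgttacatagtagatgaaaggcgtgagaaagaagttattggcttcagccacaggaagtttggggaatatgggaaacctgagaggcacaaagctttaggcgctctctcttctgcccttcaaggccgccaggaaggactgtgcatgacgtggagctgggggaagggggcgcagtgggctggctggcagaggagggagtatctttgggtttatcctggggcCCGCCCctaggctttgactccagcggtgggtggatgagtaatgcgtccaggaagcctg
Timp3: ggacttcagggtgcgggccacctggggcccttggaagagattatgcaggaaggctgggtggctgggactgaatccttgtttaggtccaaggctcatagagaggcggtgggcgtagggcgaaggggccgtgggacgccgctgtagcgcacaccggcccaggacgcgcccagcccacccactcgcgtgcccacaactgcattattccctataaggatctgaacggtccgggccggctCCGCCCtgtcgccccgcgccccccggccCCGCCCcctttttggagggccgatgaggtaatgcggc
The GC box was found in all 4 windows searched, 1 time in that of Timp1 and 2 times in that of Timp3, and in 35.7% of all 32851 promoters of the table. The TEAD motif was in the window of Timp1, at position -247 from the gene's start, and in 14.7% of all promoters, and these letters were not in the windows of Timp3, Timp2 or Mmp14. Neither motif overlaps the other in these windows, and a match is a description of the letters. Timp1 is read from the plus strand inside Syn1 (chrX:20860511-20920918), and Timp3 from the plus strand inside Syn3 (chr10:86048746-86498926), both of which are on the minus strand. Whether the counting used strand is not stated. Reads given to Syn1 numbered 25 to 885 per library against 624 to 16564 for Timp1, and those given to Syn3 0 to 5 against 727 to 18308 for Timp3.

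Timp1, a secreted inhibitor, fell from day 0 to day 1 in all 6 lines. Wildtype libraries went from 7456, 7354 and 16796 at day 0 to 2385, 2113 and 1841 on day 1, with a gap between the days although the third day 0 library held over 2 times the others. The log2 change was -2.45 ± 0.37, adjusted p = 2e-05, or 5.45-fold lower, and -1.86 without that library. The log2 change was -2.42 ± 0.37, adjusted p = 3.08e-05 in EMD-/y, -2.02 ± 0.38, adjusted p = 0.00029 in +EMD, -2.39 ± 0.37, adjusted p = 5.31e-05 in S54F, -1.69 ± 0.37, adjusted p = 0.00137 in Δ95–99 and -1.27 ± 0.36, adjusted p = 0.0129 in Q133H. In Q133H, where the libraries went from 5751, 5640 and 9766 to 3402, 3476 and 2771, the adjusted p was 0.163 without the third day 0 library and 0.0941 without the third day 1 library. From day 1 to day 2 wildtype fell further, to 1180, 1290 and 746 (-1.05 ± 0.39, adjusted p = 0.0332), but not without the third library of day 1 (0.0546) or day 2 (0.229). The libraries of +EMD, S54F, Δ95–99 and Q133H also fell over that day without overlap, but did not pass the limma test. The log2 change was -0.90 (adjusted p = 0.0687) in S54F, -0.70 (adjusted p = 0.162) in Δ95–99 and -0.81 (adjusted p = 0.113) in Q133H. In EMD-/y the libraries of the 2 days overlapped. Against wildtype on the same day, Timp1 passed the test once, in +EMD at day 0 with 4042, 4337 and 4669 (-1.33 ± 0.36, adjusted p = 0.00695). That call rested on the third wildtype library, which was high, since without it the log2 difference was -0.74 (adjusted p = 0.159). It was also lower than in EMD-/y (-1.03 ± 0.36, adjusted p = 0.048), which was lost without any 1 of 4 libraries (adjusted p of up to 0.326). Without passing the limma test, every Q133H library lay above wildtype on day 1 (0.60, adjusted p = 0.188) and day 2 (0.84, adjusted p = 0.0714). Every library lay below wildtype in Δ95–99 at day 0 (-0.84, adjusted p = 0.112), in +EMD on day 1 (-0.90, adjusted p = 0.0618) and in S54F on day 1. The differences between the day changes of a line and of wildtype did not pass, the widest being 1.18 ± 0.52, adjusted p = 0.103 in Q133H up to day 1.

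Timp3, the inhibitor that binds to the matrix and also blocks ADAM and ADAMTS proteases, fell steeply at the start of differentiation in every line but Q133H. Wildtype libraries held 14726, 15116 and 11084 at day 0, 2444, 2381 and 2785 on day 1 and 1236, 1163 and 851 on day 2, with no overlap between days. The log2 change was -2.31 ± 0.31, adjusted p = 5.52e-06 up to day 1, or 4.97-fold lower, and -1.33 ± 0.33, adjusted p = 0.00246 after it. The log2 change up to day 1 was -2.24 ± 0.31, adjusted p = 9.99e-06 in EMD-/y, -2.60 ± 0.31, adjusted p = 2.77e-06 in +EMD, -2.40 ± 0.31, adjusted p = 7.84e-06 in S54F and -2.03 ± 0.31, adjusted p = 5.17e-05 in Δ95–99, and all 5 of these calls were kept without each library in turn. Their day 0 libraries ran from 9124 in Δ95–99 to 19403 in S54F. From day 1 to day 2 Timp3 also fell in +EMD (-1.01 ± 0.33, adjusted p = 0.0146) and S54F (-1.21 ± 0.32, adjusted p = 0.00418). The first was lost without the third +EMD library of day 1 or day 2 (0.0669 and 0.077), and the second without the third S54F library of day 1 (0.0506).

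In Q133H Timp3 was low from day 0. The libraries held 3089, 2981 and 5054 at day 0, 2269, 2251 and 2929 on day 1 and 3496, 3811 and 2447 on day 2. At day 0 these were below every library of every other line, and the log2 difference was -1.72 ± 0.31, adjusted p = 0.000332 against wildtype, or 3.29-fold lower, and -1.87 ± 0.31, adjusted p = 0.000327 against EMD-/y. The change up to day 1 did not pass the test (-0.60 ± 0.31, adjusted p = 0.154), nor did the change from day 1 to day 2 (0.23 ± 0.31, adjusted p = 0.645). Every Q133H library of day 1 still lay below every Q133H library of day 0. The Q133H change differed from the wildtype change by 1.71 ± 0.44, adjusted p = 0.00855 up to day 1, a call kept without each library in turn. From day 1 to day 2 it differed by 1.55 ± 0.45, adjusted p = 0.0189, with 0.0521 without the third wildtype library of day 1 and 0.0833 without that of day 2. On day 2 Timp3 was then higher than wildtype in Q133H (1.54 ± 0.33, adjusted p = 0.0004) and in Δ95–99, with 1921, 1692 and 2226 (0.95 ± 0.33, adjusted p = 0.0225), the latter not without the third library of wildtype (0.155) or Δ95–99 (0.121). The sum of the 8 fibroblast and fibro-adipogenic markers at day 0 was 1459 to 1711 in Q133H against 4287 to 6178 in wildtype, which came from Ly6a (means of 613 and 4852), whereas 4 of the 8 had the higher mean in Q133H, 3 the lower and Lum was at 0. The myogenic sum was 29960 to 69863 against 50485 to 63830, with the lower mean in Q133H for 7 of 8, Pax7 at 2.23 against 368 among them. Their part in the result was not tested. In EMD-/y the day 2 libraries held 1241, 1281 and 3196, so that the third library stood well above the pair, and the difference from wildtype was 0.93 ± 0.33, adjusted p = 0.101.

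**Figure D3:**
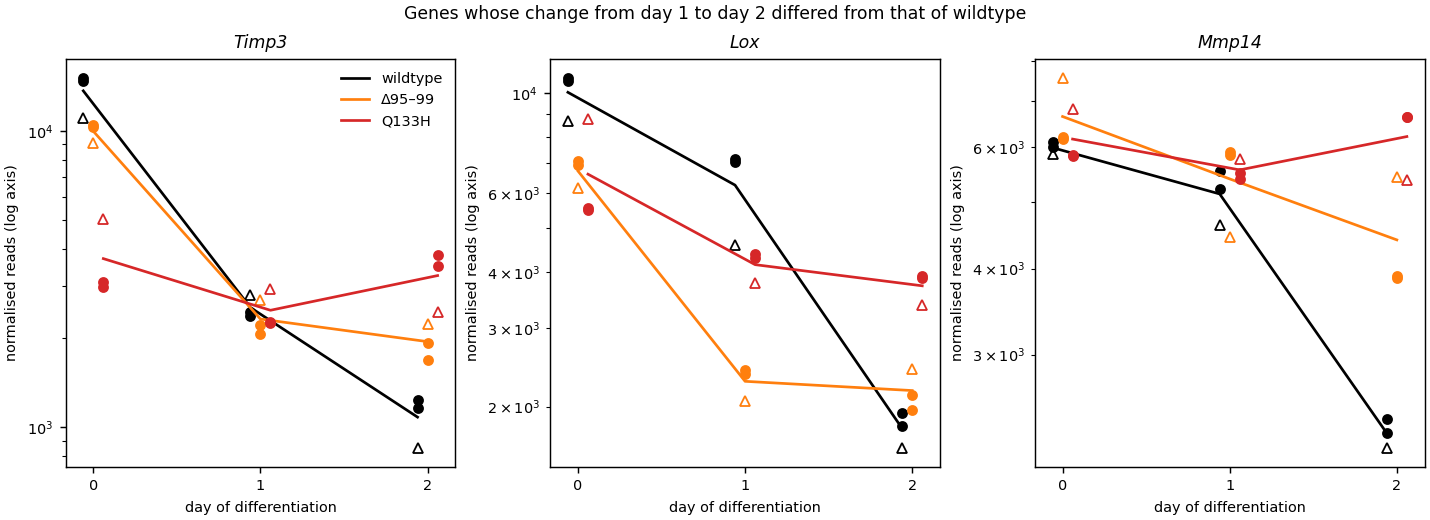
Normalised reads of Timp3, Lox and Mmp14 on a log axis against day of differentiation in wildtype, Δ95–99 and Q133H. Filled circles are the most alike pair, open triangles the third library, and lines join the means of 3. Timp3 in Δ95–99 is shown beside the others although its day changes did not differ from wildtype by the test. Timp3 starts near 13642 in wildtype and near 3708 in Q133H and ends at 1083 and 3251, and Mmp14 on day 2 is 2308 in wildtype and 6215 in Q133H.

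Timp2, the inhibitor that also takes part in the activation of pro-Mmp2, had the narrowest range of group means on a ratio scale, between 13655 in wildtype on day 1 and 31008 in Q133H on day 2. It rose from day 1 to day 2 in all 6 lines. Wildtype dipped from 21283, 21063 and 17290 to 13703, 14061 and 13200 on day 1 (-0.50 ± 0.17, adjusted p = 0.0207) and came back to 20138, 19674 and 18476 (0.50 ± 0.17, adjusted p = 0.0208). Both calls were lost without the third day 1 library (0.0846 and 0.0913). Q133H rose from 15029, 14948 and 23476 to 29063, 28456 and 35505 (0.77 ± 0.17, adjusted p = 0.00249), the rise that was kept without each library in turn. The rises in the other lines were 0.43 in EMD-/y and S54F, 0.46 in +EMD and 0.59 in Δ95–99, with adjusted p = 0.0452, 0.0455, 0.0329 and 0.0111. Each of these 4 was lost without the third library of a day, with an adjusted p of up to 0.211 in EMD-/y, 0.182 in S54F, 0.192 in +EMD and 0.117 in Δ95–99. The rise in EMD-/y was also lost without the first library of day 1 (0.0501) or day 2 (0.0659). That in +EMD was lost without the first library of day 2 (0.0525), and that in S54F without the second library of day 2 (0.0653). Timp2 overlaps Cep295nl (chr11:118332360-118342542), which was given 13 to 83 reads per library against 13348 to 36002.

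On day 2, Timp2 was higher in Q133H than in wildtype (0.74 ± 0.17, adjusted p = 0.001) and than in EMD-/y (0.64 ± 0.17, adjusted p = 0.00361, and 0.0503 without the third Q133H library). In Δ95–99, with 26438, 22521 and 29619, it was higher than wildtype by 0.48 ± 0.17, adjusted p = 0.0258, which was lost without the third library of wildtype (0.128), the first library of Δ95–99 (0.0583) or the third (0.204). On day 1 the difference of Q133H from wildtype (0.47 ± 0.17, adjusted p = 0.0286) rested on 1 library: without the third Q133H library the log2 difference was 0.15 (adjusted p = 0.508), and without the third wildtype library the adjusted p was 0.107. The Q133H change up to day 1 differed from that of wildtype by 0.79 ± 0.24, adjusted p = 0.0243, with 0.124 and 0.141 without the third Q133H library of day 0 or day 1 and 0.0544 without the third wildtype library of day 1.

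Lox, the founding enzyme of the lysyl oxidase family, fell as wildtype progenitors differentiated. Wildtype libraries held 10669, 10849 and 8660 at day 0, 7131, 7022 and 4581 on day 1 and 1814, 1936 and 1616 on day 2, with no overlap between days. The step up to day 1 was -0.76 ± 0.34, adjusted p = 0.0674 and did not pass, whereas the step to day 2 did (-1.70 ± 0.35, adjusted p = 0.000512, or 3.26-fold lower). In +EMD and Δ95–99 Lox fell over the first day, a change that did not differ from that of wildtype by the test (-0.90 ± 0.48, adjusted p = 0.275, and -0.80 ± 0.48, adjusted p = 0.3). From 7296, 7391 and 5837 in +EMD and 7071, 6930 and 6144 in Δ95–99 it went to 2082, 2182 and 2027 and 2411, 2368 and 2056 (-1.66 ± 0.34, adjusted p = 0.000752, and -1.56 ± 0.34, adjusted p = 0.00152), after which neither line moved by the test. S54F also fell up to day 1 (-1.45 ± 0.34, adjusted p = 0.00227, and 0.0534 without the third day 0 library). On day 1, Lox was lower than wildtype in +EMD (-1.45 ± 0.34, adjusted p = 0.00193) and Δ95–99 (-1.36 ± 0.34, adjusted p = 0.00324), and lower than EMD-/y in both (-1.36 ± 0.34, adjusted p = 0.00481, and -1.27 ± 0.34, adjusted p = 0.00738). All 4 of these calls were kept without each library in turn. On day 2 it was lower in +EMD than in EMD-/y (-1.06 ± 0.35, adjusted p = 0.0261), but not without the third EMD-/y library (0.373) or the third +EMD library (0.17).

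From day 1 to day 2 the change in Δ95–99 differed from that of wildtype by 1.70 ± 0.49, adjusted p = 0.0304 and that in Q133H by 1.54 ± 0.49, adjusted p = 0.0283. Without the third wildtype library of day 2 the adjusted p was 0.1 and 0.091. It was 0.0807 and 0.0932 without the third Δ95–99 library of day 1 or day 2, and 0.0676 without the third Q133H library of day 1. The differences in +EMD (1.56 ± 0.49, adjusted p = 0.0566) and EMD-/y (1.27 ± 0.49, adjusted p = 1.0) did not pass. On day 2, Q133H held 3878, 3923 and 3365, above all wildtype libraries (1.05 ± 0.35, adjusted p = 0.0134, and 0.0733 without the third wildtype library). EMD-/y held 2640, 2635 and 6010, of which the third library stood apart. Its difference from wildtype was 1.18 ± 0.35, adjusted p = 0.0421, and without that library it was 0.59 (adjusted p = 0.495). The call was also lost without the first wildtype library (0.0566) or the third (0.218).

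Loxl1, the lysyl oxidase known for elastin fibres, was the member whose calls against wildtype held best. It was higher in 9 of 15 comparisons and lower in 2. At day 0 wildtype libraries held 768, 814 and 527, EMD-/y 2355, 2164 and 2963, +EMD 2082, 2463 and 1933, S54F 1523, 1531 and 2090 and Δ95–99 1680, 1528 and 1466. Every library of these 4 lines was above every wildtype library. The log2 difference was 1.95 ± 0.21, adjusted p = 8.47e-07 in EMD-/y, 1.67 ± 0.21, adjusted p = 3.68e-06 in +EMD, 1.41 ± 0.21, adjusted p = 5.95e-05 in S54F and 1.21 ± 0.21, adjusted p = 0.000283 in Δ95–99, or 3.87-fold, 3.17-fold, 2.67-fold and 2.31-fold. Q133H, with 810, 802 and 621, overlapped wildtype (0.11 ± 0.22, adjusted p = 0.765). On day 2, EMD-/y held 3298, 3605 and 3878 against 1380, 1553 and 1440 in wildtype (1.33 ± 0.20, adjusted p = 7.76e-05), and +EMD was higher by 0.79 ± 0.20, adjusted p = 0.00358. On day 1 the difference was 1.72 ± 0.20, adjusted p = 4.36e-06 in EMD-/y, 1.05 ± 0.21, adjusted p = 0.000378 in +EMD and 1.13 ± 0.21, adjusted p = 0.000497 in S54F. The differences in S54F (0.56 ± 0.20, adjusted p = 0.0637) and Δ95–99 (-0.06 ± 0.20, adjusted p = 0.824) did not pass on day 2. None of the 11 calls against wildtype was lost without any 1 library.

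Q133H was below wildtype from day 1. Its Loxl1 libraries held 360, 360 and 569 on day 1 and 599, 685 and 732 on day 2 (-0.80 ± 0.22, adjusted p = 0.00592 on day 1, and -1.10 ± 0.21, adjusted p = 0.000155 on day 2). Loxl1 fell in Q133H up to day 1 (-0.72 ± 0.23, adjusted p = 0.0226), and the difference from the wildtype change was -0.92 ± 0.31, adjusted p = 0.0407, which was lost without any 1 of 4 libraries (adjusted p of up to 0.15). Against EMD-/y, the line from which it was made, Q133H was lower, with a log2 difference of -1.84 ± 0.21, adjusted p = 6.26e-06 at day 0, -2.52 ± 0.21, adjusted p = 1.43e-07 on day 1 and -2.43 ± 0.21, adjusted p = 3.76e-08 on day 2, the last a level 5.37-fold lower. Δ95–99 was lower than EMD-/y on day 1 (-1.21 ± 0.20, adjusted p = 0.000169) and day 2 (-1.39 ± 0.20, adjusted p = 2.68e-05). At day 0 the difference was -0.74 ± 0.20, adjusted p = 0.0228, with 0.227 without the third EMD-/y library and 0.122 without the third Δ95–99 library. In +EMD, Loxl1 did not differ from EMD-/y by the test at day 0 (-0.29 ± 0.19, adjusted p = 0.314). It was lower on day 1 (-0.67 ± 0.20, adjusted p = 0.0131, and 0.0508 without the third +EMD library) and on day 2 (-0.54 ± 0.19, adjusted p = 0.0404, with up to 0.172 without 1 of 4 libraries), while staying above wildtype. The difference of S54F from EMD-/y was -0.77 ± 0.19, adjusted p = 0.0547 on day 2. It was larger than that of +EMD, which passed in a comparison where 28.6% of all genes were called, against 1.11% in S54F.

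From day 1 to day 2 Loxl1 rose in wildtype (0.93 ± 0.21, adjusted p = 0.00123), in +EMD (0.66 ± 0.20, adjusted p = 0.00893), in EMD-/y (0.54 ± 0.19, adjusted p = 0.0288) and in Q133H (0.63 ± 0.23, adjusted p = 0.0434). The wildtype rise was kept without each library in turn. The adjusted p reached 0.0542 without the third +EMD library of day 2, 0.279 in EMD-/y without the third library of a day, and 0.185 in Q133H without any 1 of 4 libraries.

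Loxl2, which oxidises collagen IV among other substrates, differed most between libraries of the same group and passed the test in none of the 27 comparisons with wildtype or between days. By the unadjusted p under 0.05 it passed in 0 of them, and with all 54 libraries as separate replicates in 3. EMD-/y held 400, 383 and 2036 at day 0, 2261, 2280 and 638 on day 1 and 519, 548 and 1439 on day 2. The pair and the third library of that line thus moved in opposite directions from day 0 to day 1. In wildtype the pair held 1284 and 1283 on day 1 and the third library 486, while all libraries were low on day 2 with 335, 296 and 152 (-1.77 ± 1.08, adjusted p = 0.191). The median gap between the pair and the third library over the 18 groups was 0.989 on the log2 scale for Loxl2, against 0.0767 within the pair. For the other members the median gap to the third library was 0.193 for Timp2, 0.216 for Loxl1, 0.269 for Mmp14, 0.28 for Lox, 0.294 for Mmp2, 0.331 for Timp3, 0.39 for Timp1, 0.514 for Adamts5 and 0.892 for Mmp9. The largest gap of Loxl2 was 3.08, in +EMD on day 1, where the libraries held 488, 456 and 54.7.

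**Figure D4:**
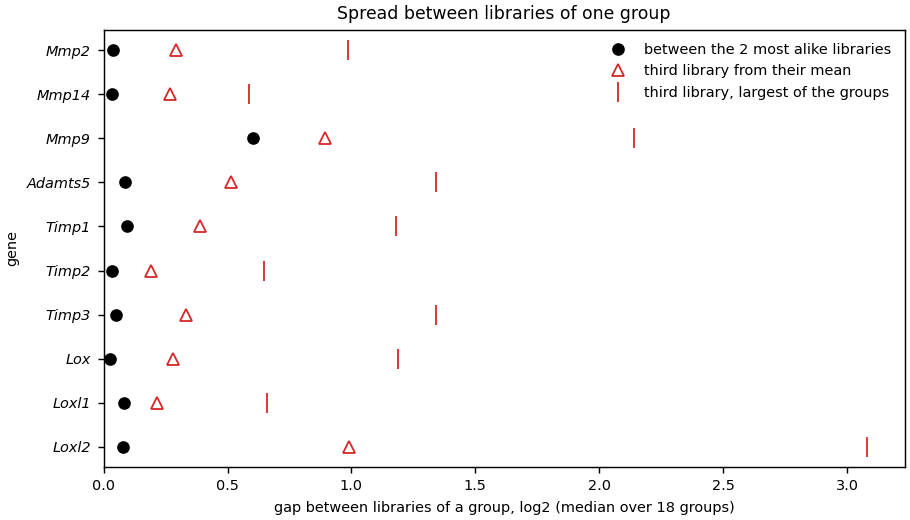
Gap between libraries of the same group on the log2 scale for each member over the 18 groups, as the median within the most alike pair (black circles), the median of the third library from that pair (red triangles) and the largest such gap (red bars). The median gap to the third library is 0.989 for Loxl2 and 0.193 for Timp2, while within the pair the medians lie between 0.0269 and 0.0927 for the members other than Mmp9.

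Genes whose group means ran most like those of a member were sought over the 18 groups among 11031 genes, as Pearson's r of log2 values. The groups share lines, days and libraries, so r is a description. The most alike gene was Adamts4 for Adamts5 (r = 0.959), another aggrecanase. It was Steap2 for Timp1 (r = 0.986), Cndp2 for Timp3 (r = 0.957), Csnk1g3 for Lox (r = 0.953), Crim1 for Mmp14 (r = 0.951), Sec14l2 for Loxl1 (r = 0.888), Gab1 for Mmp2 (r = 0.886) and Atf3 for Timp2 (r = 0.843). For Loxl2 it was Bmp1 (r = 0.819), a procollagen proteinase. Mmp9 was too low to enter. Between members r was 0.903 for Timp1 and Timp3, 0.881 for Lox and Timp1, and 0.770 for Mmp14 and Timp1.

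The other genes of matrix remodelling were read by the same test over the same 27 comparisons, where the background was 33.2%. The lists were chosen with results of these data known. Of 15 other matrix metalloproteinases 10 were tested and gave 74 calls of 270 (27.4%, 33 higher and 41 lower). Mmp19 was lower in 9 comparisons, down to -2.66 ± 0.71 in Q133H from day 0 to day 1 (limma adjusted p = 0.00844), and Mmp17 in 9. Mmp3, stromelysin-1, was higher in 4, up to 3.34 ± 1.06 in S54F on day 2 (limma adjusted p = 0.035). Of 4 other inhibitors, Pzp and Reck were tested, with 12 calls of 54 that were all higher (22.2%). Reck, a membrane-anchored inhibitor of metalloproteinases, was higher in 5, up to 2.68 ± 0.48 in Q133H on day 2 (limma adjusted p = 7.54e-05). Pzp, a broad protease inhibitor of plasma, was higher in 7, up to 4.45 ± 0.88 in +EMD on day 1.

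The 17 other ADAMTS proteases, of which 13 were tested, gave 109 calls of 351 (31.1%, 34 higher and 75 lower). Adamts2, which trims the amino end of procollagen, was lower in 13 comparisons, down to -6.96 ± 0.91 in +EMD at day 0 (limma adjusted p = 6.02e-06). Adamts1 was higher in 6 and lower in 8, and Adamts20 higher in 6 and lower in 4. Other lysyl oxidases and procollagen-processing genes, 13 of 14 tested, gave 108 of 351 (30.8%, 44 higher and 64 lower). P4ha3, a prolyl hydroxylase subunit, was lower in 13 and Pcolce2 higher in 2 and lower in 5, whereas Tll1 passed 1 time. The 9 substrates tested of 11 gave 56 calls of 243 (23.0%, 20 higher and 36 lower). Among them Col1a2, a chain of collagen I, was lower in 8, down to -6.56 ± 0.49 in +EMD at day 0 (limma adjusted p = 2.21e-09), Col1a1 lower in 4, and Dcn, the proteoglycan decorin, higher in 8 and lower in 5.

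Among 8 of 9 genes of the plasminogen system 58 calls of 216 were made (26.9%, 27 higher and 31 lower). Serpine2, an inhibitor of thrombin and plasminogen activators, was higher in 15 and lower in 1, up to 3.71 ± 0.28 in +EMD from day 0 to day 1 (limma adjusted p = 9.84e-09). Serpinb2 was lower in 5. The cathepsins and their inhibitor, 6 of 7 tested, gave 69 of 162 (42.6%, 40 higher and 29 lower), with Ctsd higher in 9 and lower in 2, up to 1.81 ± 0.17 in Δ95–99 from day 0 to day 1, and Ctss higher in 2 and lower in 4. The ADAM proteases and convertases, 9 of 10 tested, gave 77 of 243 (31.7%, 39 higher and 38 lower). Pcsk6, a proprotein convertase, was higher in 15 and lower in 8, up to 4.01 ± 0.42 in +EMD on day 1 (limma adjusted p = 2.61e-07), Adam12, known from fusing myoblasts, was higher in 1 and lower in 6, and Adam8 was higher in 4 and lower in 3.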

How the data were processed

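RNA of 54 samples (18 groups of 3) was sequenced. Per the labels and methods, the authors filtered reads with SOAPnuke, aligned them with HISAT2 to mm10 and compared groups with DESeq2. The 27 deposited tables give, per gene, normalised counts as 1 value (unit: signal) for each of 2 groups, and no column of a single sample (0 columns). Their fold change, p and q columns hold the authors' comparisons and were not used. How the counting treated strand is not given in the sources used here.

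The 2 group values of a table add up to a weighted sum of whole reads over 6 libraries. Each block of wildtype and 1 line (7 tables, 18 libraries) was solved for these whole numbers with Python 3.11.15, which was tested on simulated data. The test had been planned for tables without replicate values, so the limma test was added after the data were seen. Genes with a group mean of at least 10 normalised reads (14658) were fitted with voom in limma 3.58.1 (R 4.3.3) over 36 replicates in 18 groups, with Benjamini-Hochberg adjustment in each comparison. Libraries are numbered by likeness, the most alike pair first, and carry no replicate number of the labels. RPKM used the gene lengths of the tables.

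The members and the gene lists were chosen with earlier results of these data known. Of each list the text names up to 3 genes, those at least 2-fold apart in the most tables (5 or more). Alternatives were 54 separate libraries, a block of the pair against the third library, limma-trend, a minimum of 100, other fold limits, pseudocounts and scalings, and each library left out. A depth of 16111098 to 19446959 reads per library left Mmp9 at 0 to 70 reads per library. A gene of these lists that the rule would name is not reported here.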

Additional observations from a re-analysis of the deposited data

Results flagged for a closer look

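In 8 cases a member's change over a day differed from the wildtype change by the limma test of the difference itself. Timp3 in Q133H differed by 1.71 (log2) up to day 1 and by 1.55 after it. Mmp14 from day 1 to day 2 differed by 1.22 in Q133H and by 0.97 in Δ95–99, and Lox over the same day by 1.54 and 1.70. Timp2 in Q133H differed by 0.79 and Loxl1 by -0.92 up to day 1. Timp3 up to day 1 and Mmp14 in Q133H were kept without each library in turn, and the other 6 were each lost without at least 1 library.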

How the results depend on the processing

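No called member changed sign under any alternative run. With 54 libraries as separate replicates, an alternative chosen after seeing the data like every limma alternative here, member calls against wildtype went from 15 to 23 at day 0 and from 14 to 23 on day 1. They went from 20 to 33 from day 1 to day 2, from 3 to 13 and from 5 to 13 for the differences of day changes over the first and the second day, and from 25 to 53 against EMD-/y. All 95 calls with wildtype or between days were also called with 54 libraries, which gave 141, and the share of all genes called went from 33.2% to 47.2%. That fit counts near-duplicate libraries as replicates. Leaving out 1 library gave 12 to 16 calls against wildtype at day 0, 12 to 15 on day 1 and 11 to 19 on day 2, the lowest without the third wildtype library of day 2 against 18 with all. It gave 26 to 28 and 17 to 20 between days, 2 to 3 and 1 to 6 for the differences of day changes, the 1 again without the third wildtype library of day 2, and 21 to 27 against EMD-/y. Of the values at least 2-fold apart in the deposited tables, the 18 at day 0 became 11 at 3-fold, and the 13 on day 1 became 20 at 1.5-fold and 5 at 3-fold. The 13 on day 2 became 25 and 3, and the 9 from day 1 to day 2 became 29 and 3, or 14 when scaled to the sum of all group values.

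No paired analysis by labelled number was possible because the recovered libraries carry no replicate numbers. The departure of the third library from the pair was weakly shared between lines at day 0, and less so on days 1 and 2. Across genes, r between 2 groups of a day had a median of 0.21 at day 0 (-0.01 to 0.35). The median was 0.09 on day 1 (-0.12 to 0.42) and -0.05 on day 2 (-0.17 to 0.19). On the 3 days r was over 0.1 for 11, 7 and 3 of 15 pairs of groups. A block of the pair against the third library by day, chosen after seeing the data, kept all 95 calls and gave 110. With this block the calls against wildtype were 17, 18 and 22 on the 3 days, those between days 28 and 25, those of the differences of day changes 4 and 7, and those against EMD-/y 32, and 36.7% of all genes' values were called. With 2 replicates a group, a p that misses the threshold does not show that groups were alike. All lines share the wildtype libraries, each transduced line is 1 line, and low reads limit Mmp9.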
